A study of Mus musculus with 38 samples.

Results

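Phosphate filtered by the glomerulus is reclaimed in the proximal tubule, and the amount reclaimed is set by hormones. Apical sodium-phosphate cotransporters in the brush border carry phosphate into the cell, a scaffold holds them in place, and an exporter on the opposite side is thought to release it towards the blood. Parathyroid hormone and the bone-derived hormone fibroblast growth factor 23 (FGF23) lower the abundance of the apical carriers and so raise phosphate excretion, much of it by removing protein from the membrane, which RNA counts do not measure. The transcripts described here are 7 of the 55487 genes in the count table, taken by symbol: the apical cotransporters Slc34a1 (NaPi-2a) and Slc34a3 (NaPi-2c), the widely expressed cotransporters Slc20a1 (PiT-1) and Slc20a2 (PiT-2), the phosphate exporter Xpr1, the apical scaffold Slc9a3r1 (NHERF1) and the parathyroid hormone receptor Pth1r. All 7 passed the filter on low counts in each experiment.

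Kidney RNA was sequenced in 38 libraries, which form 10 groups in 3 experiments. In the anti-GBM experiment, male C57BL/6JRj mice were 10 weeks old at euthanasia: 4 healthy mice and 4 mice with anti-GBM nephritis (sheep IgG with adjuvant, then nephrotoxic serum) had received vehicle, and 3 healthy and 3 anti-GBM mice had received 1 µg recombinant human FGF23 daily for 6 days, the last 24 h before the kidneys were removed. In the Adriamycin experiment, female BALB/c mice of the same age, either healthy or given 1 intravenous dose of the podocyte toxin Adriamycin, received a single injection of vehicle or 1 µg FGF23 24 h before the kidneys were removed, with 4 mice in each of 4 groups. The remaining experiment used precision-cut kidney slices (PCKS) from male DBA/2J mice aged 23 weeks that had been fed 0.2% adenine for 15 weeks, and 4 cultures received vehicle and 4 FGF23; the labels give 1 h of exposure and the study text 24 h. All slices came from adenine-fed mice, so they have no disease-free comparison. Library totals lay between 11186925 and 27583911 counts, and the lowest count of any of the 7 genes in any mouse library was 497. In the slices, Slc34a3 had 28 to 57 counts per library. Every pair of replicates differed by more than counting noise (chi-square divided by its degrees of freedom at least 2.02), and each library was counted as 1 sample. The closest pairs were slice cultures, FGF23 2 with FGF23 4 at 2.02 and vehicle 1 with vehicle 3 at 2.91. The remaining slice pairs had at least 9.17. This measure cannot tell whether slices came from the same mouse. The study describes the slice cultures of a group as independent biological replicates, while the labels do not say which slices came from which mouse. The p-values measure the spread between these samples. Bulk RNA cannot tell fewer cells of a type apart from less RNA per cell.

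The promoters of the 3 cotransporter genes with the largest changes in anti-GBM kidneys are shown first, since Slc34a1 and Slc34a3 fell in those kidneys and Slc20a1 rose. Each run is RefSeq sequence of build GRCm38.p6, read 5′ to 3′ on the coding strand, and holds 250 bases before the annotated start and 30 bases from it. Capitals mark exact matches, on either strand, to 6 motifs. The HNF1 element was searched as GTTAAT. For the HNF4 core the letters were CAAAGTCC. A nuclear receptor element was taken as AGGTCA. Matches to the TATA box were sought as TATAAA. The E-box was searched as CACGTG. For the GC box the letters were GGGCGG. The Slc34a1 window lies at chr13:55399398-55399677 on the plus strand, Slc34a3 at chr2:25234205-25234484 on the minus strand and Slc20a1, at the first of 2 RefSeq starts, at chr2:129198523-129198802 on the plus strand.
Slc34a1: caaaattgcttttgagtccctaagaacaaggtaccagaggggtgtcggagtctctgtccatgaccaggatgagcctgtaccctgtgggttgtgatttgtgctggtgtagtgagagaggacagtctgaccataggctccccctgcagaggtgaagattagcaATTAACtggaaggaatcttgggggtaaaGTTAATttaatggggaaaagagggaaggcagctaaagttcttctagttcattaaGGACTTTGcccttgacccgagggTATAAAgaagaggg
Slc34a3: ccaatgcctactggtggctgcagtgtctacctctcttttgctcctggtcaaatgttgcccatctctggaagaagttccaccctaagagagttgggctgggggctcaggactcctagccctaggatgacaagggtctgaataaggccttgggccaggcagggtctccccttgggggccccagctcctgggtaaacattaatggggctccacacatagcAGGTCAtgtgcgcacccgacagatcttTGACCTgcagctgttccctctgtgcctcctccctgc
Slc20a1: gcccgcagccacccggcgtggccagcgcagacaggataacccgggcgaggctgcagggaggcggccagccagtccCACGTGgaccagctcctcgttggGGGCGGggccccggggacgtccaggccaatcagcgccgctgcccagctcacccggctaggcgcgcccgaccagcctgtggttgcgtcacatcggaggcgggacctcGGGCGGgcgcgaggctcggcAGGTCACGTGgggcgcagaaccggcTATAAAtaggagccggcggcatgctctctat
The Slc34a1 window held 2 HNF1 elements, 1 HNF4 core and 1 TATA box, which lies after the start. The Slc34a3 window held 2 nuclear receptor elements and none of the other 5 motifs. The Slc20a1 window held 2 E-boxes, 2 GC boxes, 1 TATA box and 1 nuclear receptor element, which shares its last bases with an E-box. Its GC content was 72.5%, against 47.5% for Slc34a1 and 57.5% for Slc34a3. The window at the second Slc20a1 start, which is not shown, had a GC content of 51.8%. It held 1 GC box and 1 nuclear receptor element and no other match. Of 32541 promoter windows of 280 bases, 6.89% held the HNF1 element, 1.37% the HNF4 core, 15.4% the nuclear receptor element, 13.05% the TATA box, 6.81% the E-box and 34.9% the GC box. A match describes letters in a window and does not show binding. The letters searched for HNF1 and for nuclear receptors can be only part of a full binding element.

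Slc34a1 was by far the most abundant of the 7 transcripts in mouse kidney. Per kilobase of exon, the level of Slc34a1 in CPM, counts scaled to a common library size, was 1600 ± 201 (SD, n = 4) in healthy vehicle-treated C57BL/6JRj mice. Pth1r followed at 240 ± 15.8 CPM per kb and Slc9a3r1 at 198 ± 6.23, then Slc34a3 at 31.9 ± 7.16, Xpr1 at 11.5 ± 0.88, Slc20a2 at 10.5 ± 0.64 and Slc20a1 at 6.02 ± 0.68 (SD, n = 4 each). The spreads of Xpr1 and Slc20a2 met, whereas the other neighbours in this order lay apart by more than their SDs. Exon length was taken over the merged exons of all annotated transcripts, 17.88 kb for Xpr1 and 2.358 kb for Slc34a3. Before division by length, Xpr1 at 206 CPM stood above Slc34a3 at 75.2 in these mice, so their order depends on this length. In each of the 8 mouse groups Slc34a1 came first, followed by Pth1r and then Slc9a3r1. Healthy vehicle-treated BALB/c females had 1011 ± 71.1 CPM per kb of Slc34a1 and 43.5 ± 3.13 of Slc34a3, so the ratio of the 2 apical carriers within a library was 22.6 to 24.2 there and 37.95 to 61.7 in the C57BL/6JRj males. Strain, sex and experiment differ together between these mice and the experiments were scaled separately, so no test was made across them.

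**Figure D1:**
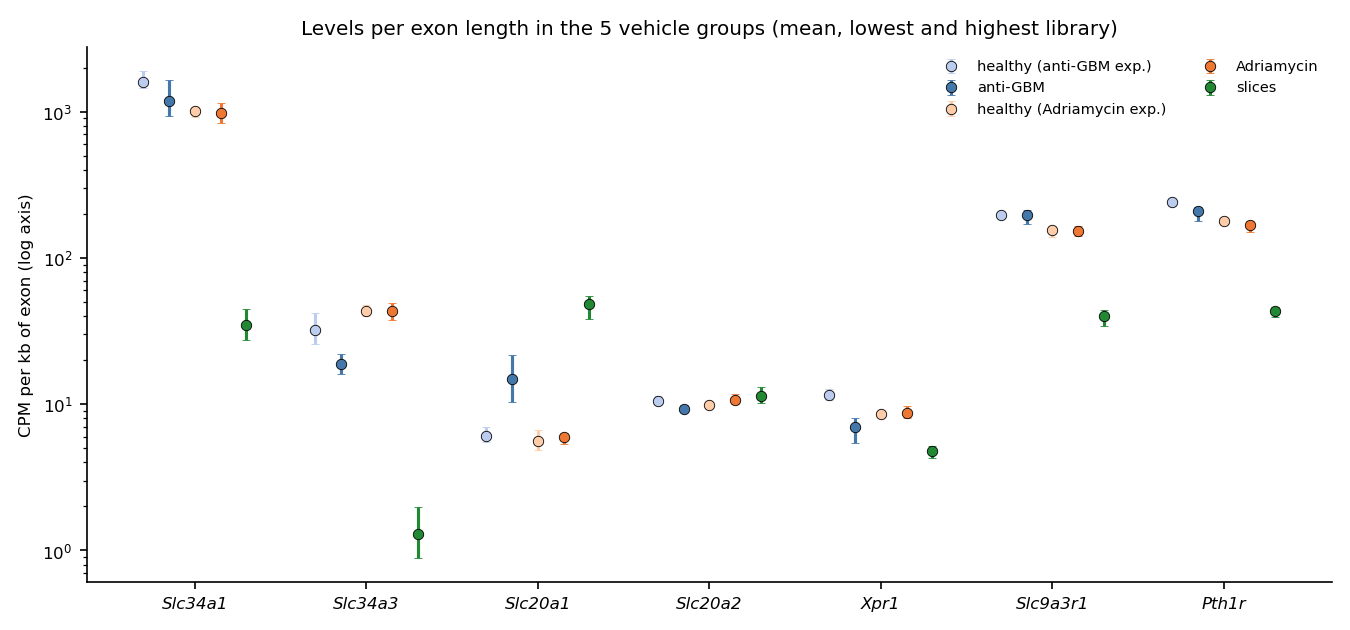
Level of each gene in the 5 vehicle-treated groups, as CPM per kilobase of exon on a log axis. Points are group means (n = 4) and bars run from the lowest to the highest library. Slc34a1 leads in all mouse groups, and in slices it stands at 34.9 CPM per kb, below Slc20a1 at 48.7.

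Which phosphate genes differ in nephritis was asked by comparing all 7 anti-GBM mice with all 7 healthy mice, giving both treatments equal weight. Slc34a1, Slc34a3, Slc20a2, Xpr1 and Pth1r were lower in anti-GBM kidneys and Slc20a1 was higher, while Slc9a3r1 did not pass the test (edgeR's quasi-likelihood test, adjusted p below 0.05). These 6 of 7 genes stand against 48.3% of all 15859 genes tested that passed in this comparison, 24.7% lower and 23.6% higher. The median log2 fold change was -0.28 over the 7 genes and -0.02 over all genes tested.

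Slc34a1 carries most of the phosphate reabsorbed in the mouse proximal tubule. It lies on chromosome 13 from 55398187 to 55415592 (GRCm38, gene ENSMUSG00000021490). Healthy mice given vehicle had 6837, 6797, 8809.8 and 7485 CPM, and healthy mice given FGF23 had 7405, 6856 and 6176. Anti-GBM mice given vehicle had 7706, 5304, 4376 and 4552 CPM, and those given FGF23 had 3528, 4594 and 5038. Of the 7 anti-GBM mice, 6 were below every healthy mouse, and 1 vehicle-treated mouse, NTS5, lay inside the healthy range. Slc34a1 was at 68.7% of the healthy level, a log2 fold change of -0.54 (standard error, SE, 0.13; edgeR adjusted p = 0.00429). Between the vehicle-treated groups alone the log2 fold change was -0.45 and did not pass (adjusted p = 0.0565 by edgeR), where 39.8% of all genes did. Between the FGF23-treated groups it was -0.64 (adjusted p = 0.0323), where 27.2% of all genes passed.

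Slc34a3, the second apical carrier, showed a larger relative decrease. It lies on chromosome 2 from 25228898 to 25234364 (ENSMUSG00000006469). The healthy mice had 69.2, 60.4, 72.0 and 99.5 CPM with vehicle and 69.3, 60.8 and 52.5 with FGF23. The anti-GBM mice had 51.6, 43.0, 45.5 and 37.9 CPM with vehicle and 24.4, 29.1 and 40.4 with FGF23. All 7 anti-GBM mice were below all 7 healthy mice, a separation that 9.81% of all genes tested showed in this direction. The level was 55.2% of healthy (log2 fold change -0.86, SE 0.13, adjusted p = 1.11e-04 by edgeR).

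Slc20a1 moved the other way. PiT-1 is a sodium-phosphate cotransporter of many cell types and also the receptor of some retroviruses. It lies on chromosome 2 from 129198764 to 129211616 (ENSMUSG00000027397). Healthy mice had 30.7, 32.8, 31.8 and 39.2 CPM with vehicle and 39.4, 29.3 and 35.3 with FGF23, whereas anti-GBM mice had 121, 88.0, 58.1 and 63.6 with vehicle and 91.5, 53.6 and 80.6 with FGF23. Every anti-GBM mouse was above every healthy mouse, as for 10.4% of all genes tested. The level was 2.31-fold that of healthy mice (log2 fold change 1.21, SE 0.16, adjusted p = 4.44e-05 by edgeR), the only one of the 7 changes beyond 1 on the log2 scale. NTS5, which had the highest Slc34a1 of its group, also had the highest Slc20a1. Within a library, the ratio of Slc34a1 to Slc20a1 per kilobase was 228 to 331 in healthy mice given vehicle and 72.0 to 89.8 in anti-GBM mice given vehicle.

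Its paralogue Slc20a2, on chromosome 8 from 22476788 to 22569612 (ENSMUSG00000037656), was slightly lower. Healthy mice had 66.1, 70.8, 62.0 and 63.1 CPM with vehicle and 69.0, 61.3 and 71.9 with FGF23. Anti-GBM mice had 60.2, 61.6, 55.3 and 54.7 CPM with vehicle and 51.4, 49.4 and 54.7 with FGF23. The groups met only at 1 anti-GBM mouse given vehicle, at 61.6, and the log2 fold change was -0.28 (SE 0.06, edgeR adjusted p = 9.45e-04). It did not pass between the vehicle-treated groups alone (-0.18, adjusted p = 0.0677). The span of the gene overlaps that of Smim19 on the other strand by 95 bases. It also holds Gm17491, annotated as sense intronic, on its own strand. These 2 genes reached 794 and 283 counts in a library, while the lowest Slc20a2 count was 732. The overlap was taken over whole gene spans, and whether exons are shared and affect the Slc20a2 level was not tested.

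Xpr1, the only known phosphate exporter of animal cells, lies on chromosome 1 from 155275701 to 155417415 (ENSMUSG00000026469). It stood at 192, 228, 198 and 207 CPM in healthy mice given vehicle and at 196, 158 and 179 in those given FGF23. The anti-GBM mice had 144, 134, 127 and 96.7 CPM with vehicle and 129, 143 and 128 with FGF23. All 7 anti-GBM mice were below all healthy mice, as for 9.81% of all genes tested. The level was 67.5% of healthy, with a log2 fold change of -0.57 (SE 0.09, edgeR adjusted p = 1.01e-04).

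Among the regulators, Pth1r (chromosome 9 from 110722085 to 110747145, ENSMUSG00000032492) was lower and Slc9a3r1 (chromosome 11 from 115163341 to 115181181, ENSMUSG00000020733) did not pass. Pth1r had 666, 754, 725 and 659.5 CPM in healthy mice given vehicle and 814, 594 and 732 in those given FGF23. It had 648, 630.4, 519 and 655 CPM in anti-GBM mice given vehicle and 515, 619 and 547 in those given FGF23. Of the 7 anti-GBM mice, 3 were below all healthy mice. The log2 fold change of Pth1r was -0.27 (SE 0.08, edgeR adjusted p = 0.0148). It was lost without the healthy mouse NTS9 (-0.19, adjusted p = 0.0761), without NTS11 (-0.22, adjusted p = 0.0558) or without the anti-GBM mouse NTS13 (-0.23, adjusted p = 0.0503), and in both the vehicle-treated and the FGF23-treated groups alone (adjusted p = 0.174 and 0.0530). Slc9a3r1, which tethers Slc34a1 in the brush border, ranged from 302 to 409 CPM in anti-GBM mice and from 334 to 393 in healthy mice. Its log2 fold change of -0.08 had a 95% interval from -0.22 to 0.06 (adjusted p = 0.308 by edgeR).

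**Figure D2:**
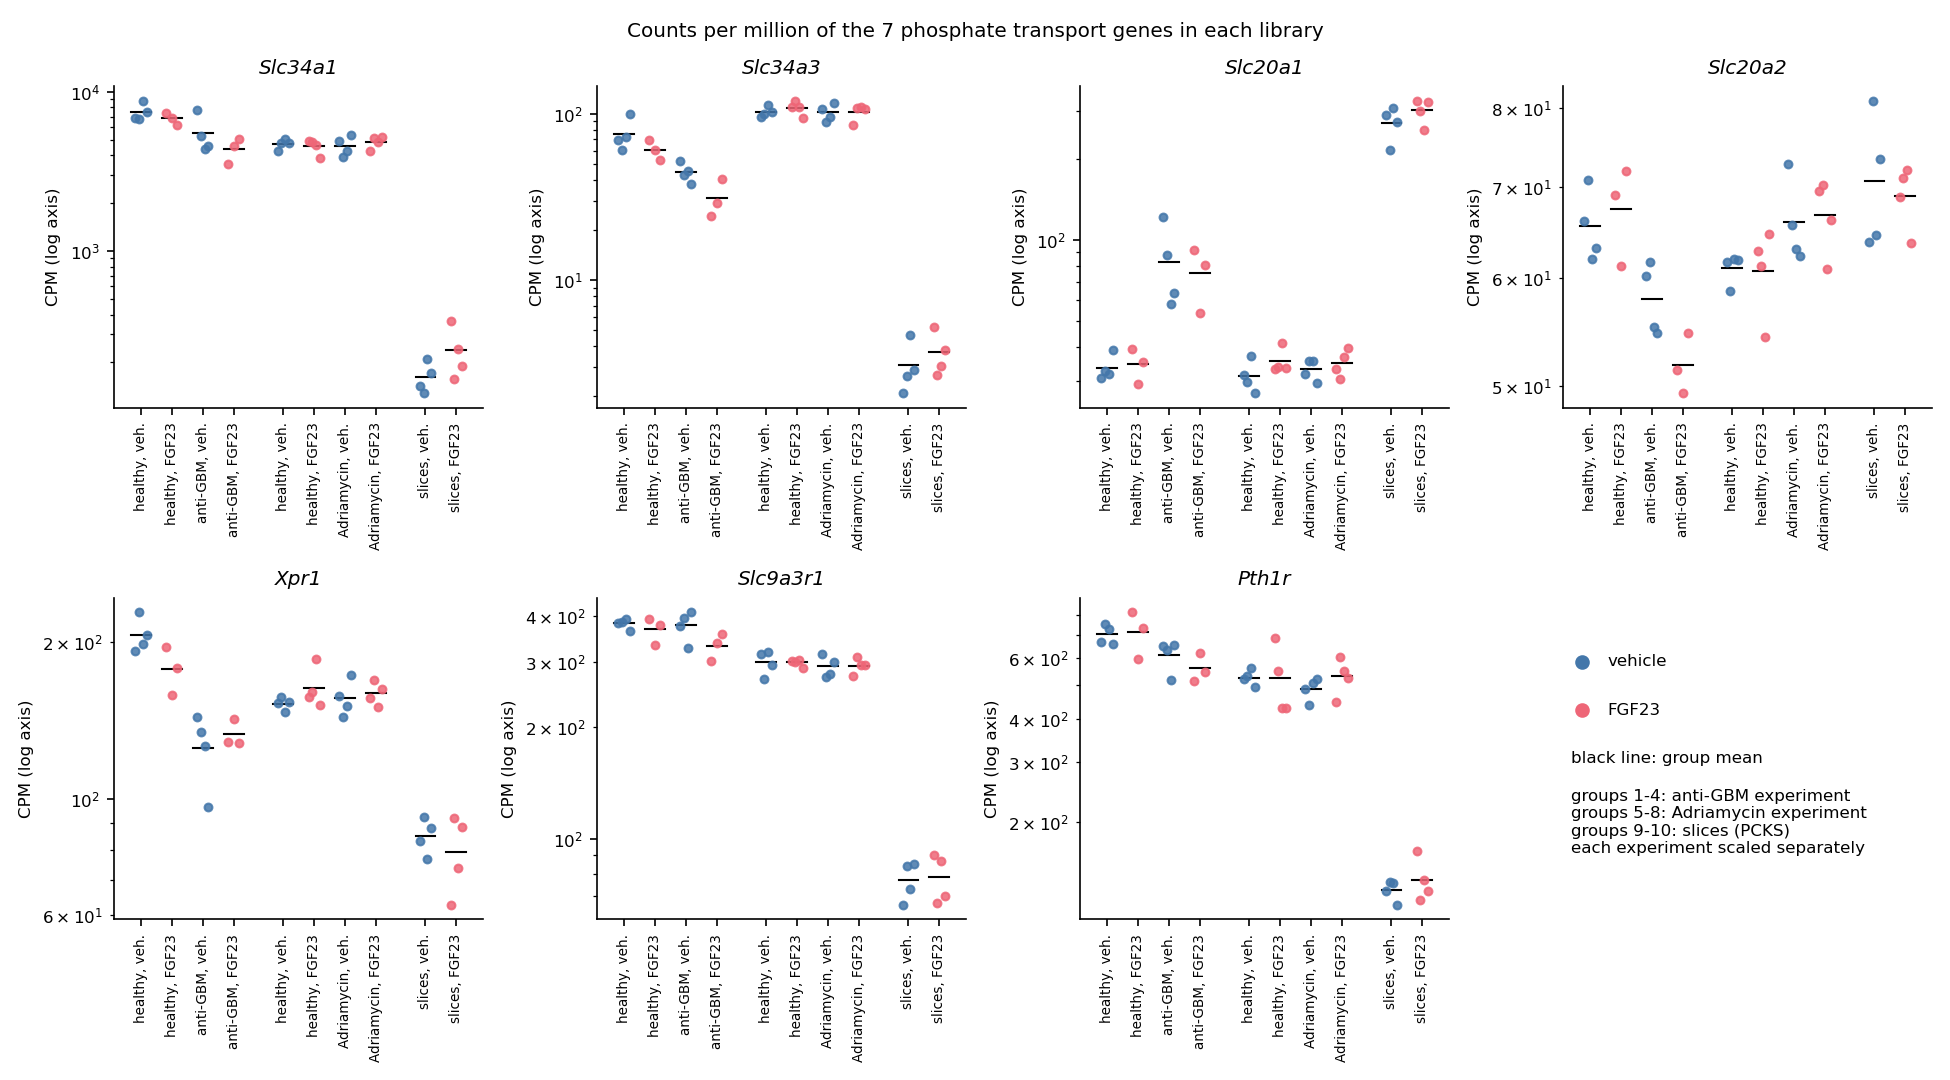
CPM of each gene in each of the 38 libraries, on log axes that differ between genes. Points are libraries, black lines group means, blue is vehicle and red FGF23. In the anti-GBM experiment Slc34a3 and Xpr1 separate downwards and Slc20a1 upwards with disease, diseased and healthy mice of the Adriamycin experiment share most of their ranges, and the slices lie far from the kidneys for Slc34a1, Slc34a3 and Slc20a1.

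Proximal tubule, injury and leukocyte markers moved with these genes in anti-GBM disease, where 48.3% of all genes passed. Of 20 proximal tubule markers, 16 were lower and 1, Pck1, a gluconeogenic enzyme, was higher. Their median log2 fold change was -0.53. The summed level of the 20 was 29296 to 33990 CPM in healthy mice given vehicle, 27385 to 32818 in healthy mice given FGF23, 18597 to 30093 in anti-GBM mice given vehicle and 18308 to 22926 in those given FGF23, and none of the 20 was at 0 in any of these libraries. All 11 tubular injury markers were higher, by a median of 3.80, and their summed level was 849 to 1497 CPM in healthy mice and 5035 to 18301 in anti-GBM mice. Havcr1 (KIM-1) rose by 6.63 (SE 0.41, edgeR adjusted p = 5.88e-08) and Lcn2 (NGAL) by 6.05 (SE 0.51, adjusted p = 7.64e-07). Of 15 leukocyte markers tested, 12 were higher and 1 lower, with sums of 129 to 184 CPM in healthy and 288 to 539 in anti-GBM mice, and Ptprc (CD45) rose by 1.06 (SE 0.17, adjusted p = 1.54e-04). Of the 2 proximal tubule genes named beside them, Lrp2 (megalin) changed by -0.57 (adjusted p = 0.00264) and Slc5a2 (SGLT2) by -0.34, which did not pass (adjusted p = 0.0811). Of 12 distal tubule and collecting duct markers 2 were lower and 1 higher, and of 10 podocyte and endothelial markers 2 were lower, both smaller shares than that of all genes. The part of these lists in the changes of the 7 genes was not tested.

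Of 42 other phosphate genes tested, 19 were lower and 10 higher in anti-GBM mice, beside 24.7% of all genes lower and 23.6% higher, and their median was -0.15 against -0.02 over all genes. Changes in both directions were thus common to all genes in this comparison. Among the other transporters, Slc17a3 and Slc17a1, organic anion carriers first described as phosphate transporters, were lower by log2 fold changes of -0.63 and -0.45 (adjusted p = 8.57e-04 and 0.00151 by edgeR). Slc34a2 (NaPi-2b), the cotransporter best known from intestine and lung, rose by 1.87 (SE 0.30, adjusted p = 1.94e-04), from 3.45 ± 1.77 CPM in healthy mice given vehicle to 11.8 ± 5.81 in anti-GBM mice given vehicle (SD, n = 4 each). Of the 13 scaffolds and regulators of apical carriers, 7 were lower and 5 higher. The lower ones included Tmem174 (-0.89, adjusted p = 1.59e-05), a proximal tubule protein that binds Slc34a1, Snx27 (-0.49, adjusted p = 6.23e-05), a sorting nexin, Pdzd3 (-0.47, adjusted p = 1.12e-04), a scaffold, and the sodium-proton exchanger Slc9a3 (-0.58, adjusted p = 1.21e-04). The higher ones included Stc2 (stanniocalcin 2, 1.32, adjusted p = 1.70e-05), the membrane linker Ezr (0.43, adjusted p = 2.34e-05) and the kinase Sgk1 (1.89, adjusted p = 4.14e-05). Of 15 hormone, receptor and signalling genes 6 were lower and 2 higher, and of 5 inositol pyrophosphate kinases 2 were lower and 1 higher. The pyrophosphate exporter gene Ank rose by 0.62 (adjusted p = 2.89e-05).

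**Figure D3:**
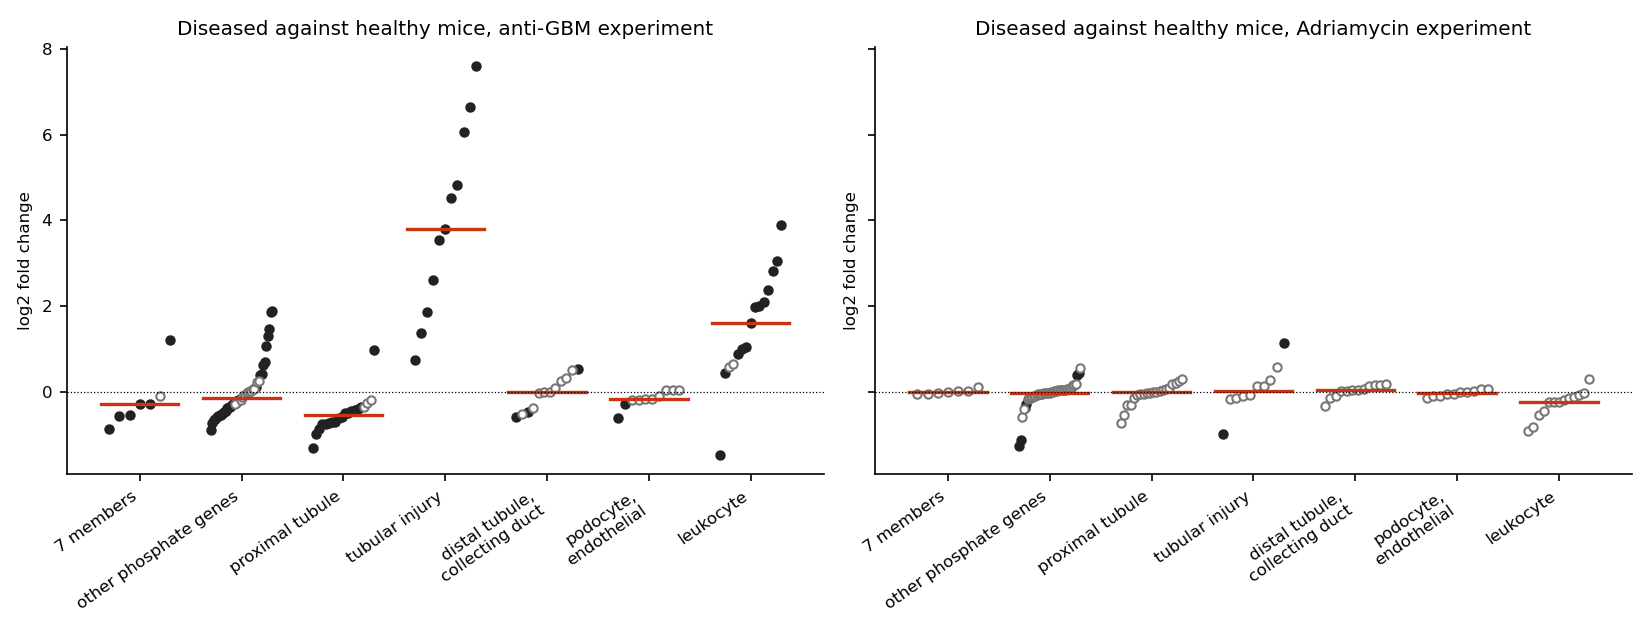
log2 fold change of diseased against healthy mice for the 7 genes, the other phosphate genes and 5 marker lists, in the anti-GBM (left) and Adriamycin (right) experiments. Points are genes, filled where the adjusted p was below 0.05, and red bars are list medians. In the left panel the injury markers stand at a median of 3.80 and the proximal tubule markers at -0.53, and in the right panel the medians lie between -0.23 (leukocyte markers) and 0.05 (distal markers).

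In the Adriamycin experiment, 0 of the 7 genes passed between 8 diseased and 8 healthy mice in edgeR's test, where 1.94% of all genes did, and 0 passed in DESeq2. At an unadjusted p below 0.05 there was 1, Slc20a2, as against 15% of all genes. Slc34a1 ranged from 3899 to 5349 CPM in Adriamycin mice and from 3819 to 5059 in healthy mice. Its log2 fold change of 0.03 had a 95% interval from -0.13 to 0.19 (adjusted p = 0.917 by edgeR). Slc34a3 changed by -0.04 (95% interval -0.19 to 0.10), Slc20a1 by 0.03 (-0.13 to 0.19), Pth1r by -0.04 (-0.23 to 0.15), Slc9a3r1 by -0.03 (-0.12 to 0.06) and Xpr1 by -0.00085 (-0.10 to 0.10). The ranges of the 8 diseased and 8 healthy mice overlapped for each of these genes. Slc20a2 was at 60.9 to 72.8 CPM in Adriamycin mice and at 54.3 to 64.7 in healthy mice, with 5 of 8 Adriamycin mice above every healthy mouse. It had a log2 fold change of 0.12 (SE 0.04, edgeR adjusted p = 0.190).

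Few marker genes passed in these mice. None of the 20 proximal tubule, 12 distal, 10 podocyte and endothelial and 13 leukocyte markers passed in edgeR's test, and of 10 injury markers 1 was higher and 1, Havcr1, lower (-0.98, adjusted p = 0.0157). Of 43 other phosphate genes, 4 were lower and 2 higher, beside 1.94% of all genes that passed in either direction. The lower ones were Slc17a2 (-1.25, adjusted p = 9.38e-04), Slc17a3 (-0.37, adjusted p = 0.0108), Ank (-0.29, adjusted p = 0.0251) and Cyp27b1 (-1.12, adjusted p = 0.0308), which encodes the enzyme that makes active vitamin D. The higher ones were Slc37a4 (0.45, adjusted p = 0.00248), a glucose-6-phosphate carrier, and Ip6k2 (0.41, adjusted p = 0.00824), an inositol hexakisphosphate kinase. Cyp27b1 rose in anti-GBM mice by 1.46 (SE 0.33, adjusted p = 0.00216).

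The 2 disease effects were compared directly in 1 edgeR fit of the 30 mouse libraries, chosen after the data were seen. For 5 of the 7 genes the effects differed, as for 41.6% of all genes tested. The anti-GBM effect minus the Adriamycin effect was -0.56 for Slc34a1 (SE 0.15, adjusted p = 0.00406), -0.81 for Slc34a3 (0.15, adjusted p = 7.96e-05), 1.19 for Slc20a1 (0.18, adjusted p = 1.04e-05), -0.40 for Slc20a2 (0.07, adjusted p = 5.44e-05) and -0.56 for Xpr1 (0.10, adjusted p = 4.30e-05) on the log2 scale. Pth1r (-0.22, adjusted p = 0.164) and Slc9a3r1 (-0.05, adjusted p = 0.632) did not pass. The difference for Slc34a1 did not pass between vehicle-treated groups alone (-0.40, adjusted p = 0.147). The disease model cannot be told apart from strain, sex, experiment and injection regimen (6 daily doses of FGF23 or 1), which differ with it.

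Whether injected FGF23 changed these transcripts was asked in healthy and in diseased mice. None of the 7 genes passed in any of the 4 comparisons in edgeR's test or in DESeq2. The share of all genes that passed in edgeR's test was 0% in healthy mice of the anti-GBM experiment, 0.24% in anti-GBM mice, 0% in healthy mice of the Adriamycin experiment and 0.0375% in Adriamycin mice. At an unadjusted p below 0.05 there was 1, Slc34a3 in anti-GBM mice, where 12.6% of all genes reached that level. In the other 3 comparisons there were 0, against 4.34% of all genes in healthy mice of the anti-GBM experiment, 6.69% in healthy and 5.69% in Adriamycin mice of the Adriamycin experiment. In anti-GBM mice Slc34a3 had a log2 fold change of -0.51 with FGF23 (95% interval -0.91 to -0.11, adjusted p = 0.337 by edgeR). Slc34a1 changed by -0.32 in anti-GBM mice (95% interval -0.73 to 0.09) and by -0.14 in their healthy controls (-0.54 to 0.27), so a decrease of moderate size lies inside both intervals. In the BALB/c mice the intervals were narrower. There the log2 fold change of Slc34a1 was -0.05 (95% interval -0.28 to 0.18) in healthy and 0.08 (-0.15 to 0.31) in Adriamycin mice, and that of Slc34a3 was 0.08 (-0.12 to 0.28) and 0.01 (-0.19 to 0.22). The response to FGF23 did not pass a test of difference between diseased and healthy mice for any of the 7 genes by edgeR or DESeq2, where 0.0315% of all genes passed in the anti-GBM and 0% in the Adriamycin experiment. At an unadjusted p below 0.05 there were 0 of the 7 in either, against 8.3% and 5.11% of all genes. None of the other phosphate genes passed in any FGF23 comparison.

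**Figure D4:**
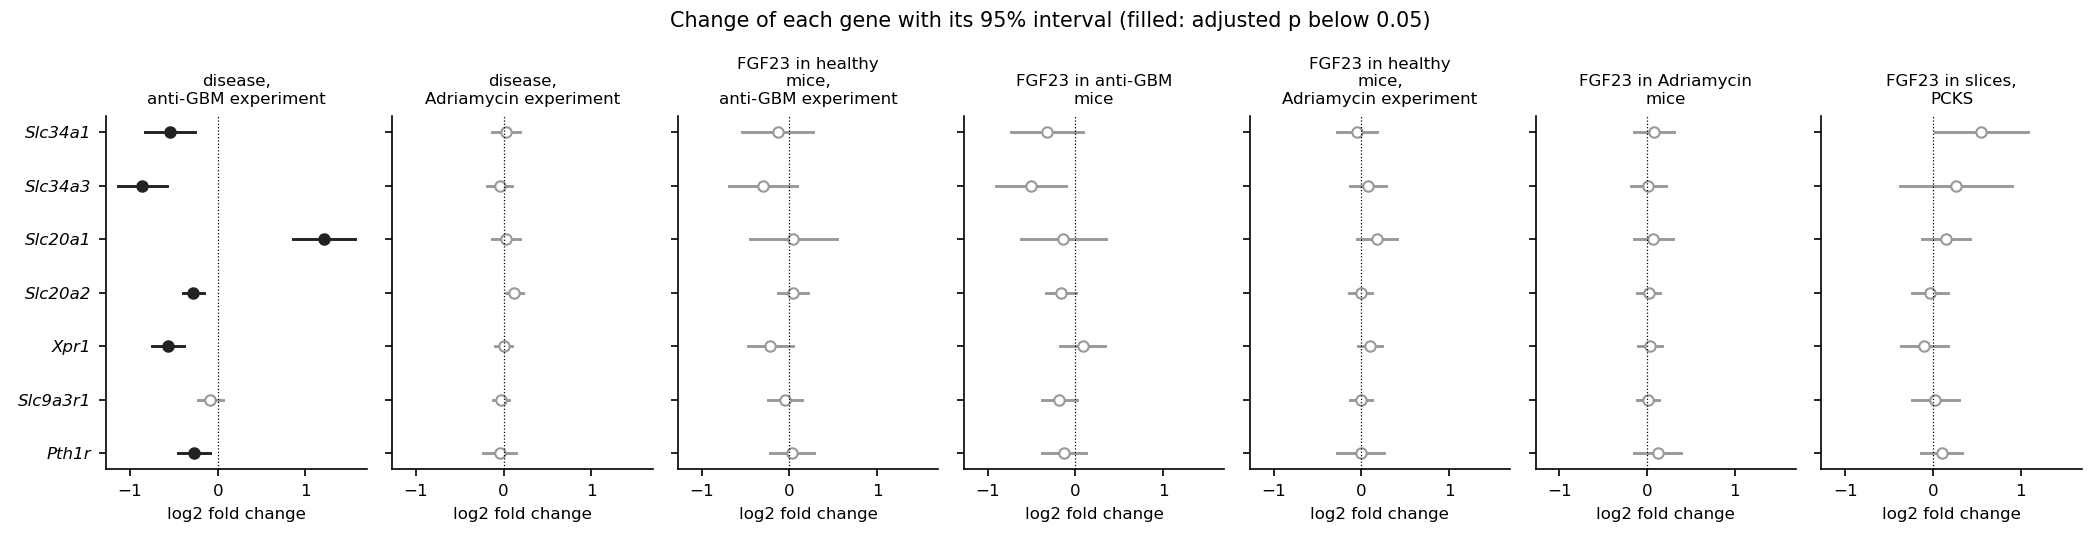
log2 fold change of each gene with its 95% interval in 7 comparisons, filled where the adjusted p was below 0.05. Filled points occur only in the anti-GBM disease panel, and the FGF23 intervals of Slc34a1 and Slc34a3 are wider in the anti-GBM experiment than in the Adriamycin experiment.

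In slices of adenine-fed mice the order of the 7 transcripts was another one. Per kilobase, Slc20a1 came first at 48.7 ± 7.22 CPM with vehicle, ahead of Pth1r at 43.6 ± 2.95, Slc9a3r1 at 40.1 ± 4.69 and Slc34a1 at 34.9 ± 7.63, and these 4 did not differ beyond their spreads from one neighbour to the next. Slc20a2 (11.4 ± 1.31), Xpr1 (4.76 ± 0.37) and Slc34a3 (1.30 ± 0.47) followed at lower levels (SD, n = 4 each). Slc34a1 had 143, 129, 209 and 171 CPM in slices with vehicle and Slc20a1 had 289.7, 215, 308 and 275. The lowest of the 30 mouse kidneys had 3528 CPM of Slc34a1, and the highest had 121 CPM of Slc20a1. Summed proximal tubule markers were 1194 to 1365 CPM in these slices, against at least 18308 in the mice, and up to 1 of the 20 was at 0 in a library, while injury markers summed to 12393 to 20028 CPM and leukocyte markers to 612 to 835. Slc20a2, at 70.6 ± 8.14 CPM, was near its level in kidneys, with mouse group means between 51.8 and 67.4. Culture, strain, age and adenine nephropathy cannot be told apart here, and the experiments were scaled separately, so these levels are a description.

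With FGF23, 0 of the 7 genes passed in slices in edgeR's test or in DESeq2, and 0% of all genes passed in edgeR's test. At an unadjusted p below 0.05 there was 1, Slc34a1, against 4.89% of all genes. It had 362, 157, 245 and 190.4 CPM in the FGF23 cultures, of which 2 lay above all vehicle cultures. The log2 fold change was 0.55 (SE 0.24, 95% interval 0.02 to 1.08, adjusted p = 0.849 by edgeR). With each of the 8 cultures left out it ranged from 0.28 to 0.71, with an edgeR adjusted p of at least 0.64. The lowest value was without the FGF23 culture at 362 CPM (adjusted p = 0.941). That culture also had the highest summed proximal tubule markers, 2177 CPM. The other FGF23 cultures lay between 1258 and 1463 and the vehicle cultures between 1194 and 1365. In slices, 15 of 18 proximal tubule markers had a positive log2 fold change (median 0.32), as had 10 of 11 distal tubule and collecting duct markers (median 0.58). The summed distal markers were 3613 to 7341 CPM with FGF23, highest in the same culture, and 2055 to 5043 with vehicle. The part of these markers in the result was not tested. Slc34a3 changed by 0.27 (95% interval -0.37 to 0.90) and Slc20a1 by 0.15 (-0.12 to 0.43).

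**Figure D5:**
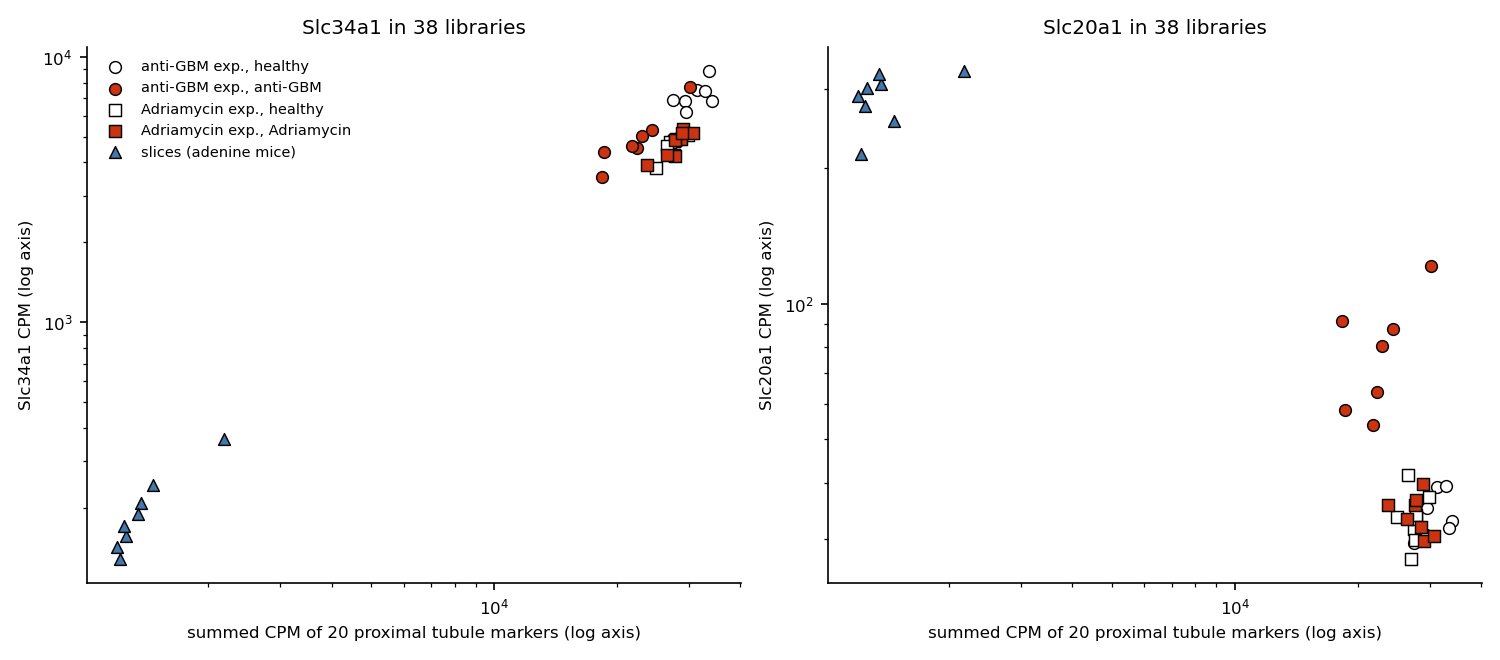
CPM of Slc34a1 (left) and Slc20a1 (right) against the summed CPM of 20 proximal tubule markers in the 38 libraries, on log axes. Symbols give experiment and disease state. Slices lie at 1194 to 2177 CPM of the markers, with low Slc34a1 and high Slc20a1, and anti-GBM mice lie mostly to the left of healthy mice.

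The 7 transcripts varied together to different degrees. Over the 38 libraries, with log2 CPM centred within each experiment, Pearson's r was 0.83 between Slc34a1 and Slc34a3, 0.30 between Slc34a1 and Xpr1, and -0.63 between Slc20a1 and Xpr1. Slc20a1 had r = 0.81 with Havcr1, and Slc34a1 had r = 0.93 with Slc5a2 and 0.90 with Kl, the FGF23 co-receptor. Among 13973 genes tested in all experiments, those most like Slc34a1 were Cltrn (r = 0.94), Sord (0.94), Ces1e (0.93), Slc5a2 (0.93) and Gm15318 (0.92). For Slc34a3 they included Ttc7b (0.89) and Slc6a19 (0.88), and for Slc20a1 Mybpc2 (0.87), Tnfaip3 (0.85) and Dusp8 (0.85). Slc20a2 was nearest to Pmpca (0.83), Blmh (0.83) and Ube3b (0.81), Xpr1 to Arl5a (0.95) and Lmbrd2 (0.95), Slc9a3r1 to Mtx1 (0.84), Mrpl28 (0.84) and Ndufa4 (0.84), and Pth1r to Dgat2 (0.82), Dhrs4 (0.80) and Slc22a2 (0.79). These points share libraries, depth and the disease groups, and the values are a description.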

How the data were processed

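The authors made Illumina stranded mRNA libraries from fragments of the kidney, demultiplexed with bcl2fastq 2.20.0, aligned reads to GRCm38 with STAR 2.7.9a and counted them on Ensembl genes with featureCounts 1.5.1 (versions from the submitters' processing notes). Whether counting used strand is not given in the sources used here. The deposited values are raw read counts per gene, without normalization, for 55487 genes and 38 libraries, with 0 columns unused. A table of Ensembl identifiers named 55141 genes. Columns of mouse libraries were assigned to groups, not to replicate numbers, from their names and the headers of the study's supplementary tables. The column name of NTS14 (anti-GBM, FGF23) ends in NTS4, the label of a healthy vehicle-treated mouse, and NTS14 was assigned by those headers.

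Each experiment was fitted by itself with 1 mean per group: TMM scaling, filterByExpr (minimum count 10) and edgeR's quasi-likelihood test, Benjamini-Hochberg adjusted over all genes tested (15859, 16020 and 15090), with a cutoff of 0.05. The disease effect is the mean over both treatments. DESeq2, the tool of the study's own methods, served as an alternative. The fit that compares both disease effects was added after the data were seen. CPM used TMM-scaled library sizes, and log2 CPM a prior count of 2. Exon lengths and coordinates come from GENCODE M21 (GRCm38), promoters and motif counts from RefSeq (GRCm38.p6), where 6 of the 7 genes were matched. The test was checked on simulated data: among 15859 genes simulated on the anti-GBM disease comparison it recovered 64.2% of 67 genes changed 1.5-fold and 85.1% of 67 changed 2-fold. On the slices, among 15090 genes, it recovered 26.9% and 79.1%. Few genes were changed in the simulations, whereas 48.3% of all genes passed in the real anti-GBM comparison, so the share recovered there may differ. The alternatives were RLE scaling, no filter, at least 10 counts in every library, an added cutoff of 1 on the log2 fold change, only the groups compared, vehicle-treated or FGF23-treated groups alone, the slice replicate number as a block, and each library left out. The text names all 7 genes, the other phosphate genes called in a comparison (at most 8 by smallest p, with some further ones chosen after their values were seen), a few marker genes, and the genes most like each of the 7, of which some are not reported here. The genes and lists were chosen with earlier results of these data known. R 4.3.3, edgeR 4.0.16 and DESeq2 1.42.0 were used.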

Additional observations from a re-analysis of the deposited data

Results flagged for a closer look

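The disease effect differed between the anti-GBM and Adriamycin experiments for 5 of the 7 genes, where 41.6% of all 16954 genes tested differed too. The difference was -0.56 for Slc34a1 (adjusted p = 0.00406 in edgeR's test of the difference), -0.81 for Slc34a3 (adjusted p = 7.96e-05), 1.19 for Slc20a1 (adjusted p = 1.04e-05), -0.40 for Slc20a2 (adjusted p = 5.44e-05) and -0.56 for Xpr1 (adjusted p = 4.30e-05), on the log2 scale. Strain, sex, injection regimen and disease model differ together between the experiments.

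In 56 sets of 4 libraries (7 genes in 8 groups), 4 had 1 library far from the other 3 by Dixon's criterion at 95%, where chance gives about 1 in 20. Slc34a3 was at 85.5 CPM in 1 Adriamycin mouse given FGF23 (Ad13) and at 107 to 110.3 in the others. Slc20a1 was at 41.7 CPM in 1 healthy BALB/c mouse given FGF23 (Ad11) and at 33.2 to 33.96 in the others. Slc20a2 was at 58.7 CPM in 1 healthy BALB/c mouse given vehicle (Ad2) and at 61.6 to 62.0 in the others. Pth1r was at 519 CPM in 1 anti-GBM mouse given vehicle (NTS7) and at 630.4 to 655 in the others.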

How the results depend on the processing

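The count of genes called between anti-GBM and healthy mice was 6 under RLE scaling, both other filters and DESeq2. It was 3 of 7 in vehicle-treated groups alone, where 39.8% of all genes passed, so the share of the 7 was near that of all genes there. It was 5 in FGF23-treated groups alone, where 27.2% of all genes passed, and 1 with an added cutoff of 1 on the log2 fold change. With each of the 14 mice left out it was 5 to 6. In all FGF23 comparisons and in the Adriamycin disease comparison the count was 0 under every alternative run. A change of 1.5-fold was recovered in 26.9% of genes simulated on the slices, and no FGF23 comparison in mice was simulated. Slc34a3 rests on few counts in slices.

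In vehicle-treated groups alone, the anti-GBM effect no longer passed for Slc34a1 (-0.45), Slc20a2 (-0.18) and Pth1r (-0.19), and in FGF23-treated groups alone for Pth1r (-0.35). These comparisons set fewer mice against each other, within the fit of all 14 libraries. With each mouse left out, the effect on Pth1r was -0.33 to -0.19. The difference of the disease effects no longer passed for Slc34a1 in vehicle-treated groups (-0.40), and with each mouse left out that for Pth1r was -0.30 to -0.16 and passed in 1 fit.

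Reversals concerned changes that passed in no fit, and the cause was not tested. In the Adriamycin disease comparison, Xpr1 was 0.00144 with RLE scaling, 0.00138 by DESeq2, 0.00418 with no filter and 0.0351 in vehicle-treated groups. Slc34a1 was -0.0391 in vehicle-treated groups, and in FGF23-treated groups Slc20a1 was -0.0238 and Pth1r 0.0193. The difference of the disease effects for Slc9a3r1 was 0.0259 in vehicle-treated groups. With each mouse left out, the Adriamycin effect ranged from -0.0112 to 0.0648 for Slc34a1, -0.00324 to 0.0748 for Slc20a1, -0.0851 to 0.0379 for Pth1r and -0.0247 to 0.0322 for Xpr1, and the difference of disease effects for Slc9a3r1 from -0.0818 to 0.00536. The FGF23 effect ranged from -0.0971 to 0.024 for Slc34a1 in healthy mice of the Adriamycin experiment and from -0.0469 to 0.0935 for Slc34a3 in Adriamycin mice. Its difference between diseased and healthy mice ranged from -0.297 to 0.00882 for Slc34a1 in the anti-GBM experiment and from -0.128 to 0.0152 for Slc34a3 in the Adriamycin experiment.

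The deviations of slices with the same replicate number from their group means had r = 0.11, 0.10, -0.11 and 0.11. Slices with different numbers had r from -0.16 to 0.12, so the numbers were not taken to pair the cultures. With the replicate block the count in slices was 0 and the log2 fold change of Slc34a1 was 0.50 (adjusted p = 0.796 in edgeR's test). For the mice no pairs were fitted, since the study allocated separate animals at random to FGF23 or vehicle. Their columns also carry no replicate number of the labels.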
